A study of Mus musculus with 67 samples.

Results

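The 43 genes described here encode the machinery that copies DNA and the enzymes that supply its deoxynucleotides. They were listed by name and role, with earlier results of these data known: 10 act in helicase loading and origin licensing, 6 in helicase activation, 6 form the sliding clamp and its loader, 8 are subunits of the replicative polymerases and primase, 5 join the lagging strand or bind single-stranded DNA, 5 make deoxynucleotides and 3 act on chromatin behind the fork. All 43 were found among the 24164 genes of the main experiment and the 24421 genes of a pilot experiment, which together hold 67 libraries. The study profiled CD4+ T cells of the mouse brain and asked how a high-fat, high-sugar (HFHS) diet changes them relative to a standard diet (SD).

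The main experiment comprised 59 bulk RNA libraries from Foxp3GFP reporter mice of the strains Balb/c and C57Bl/6J, kept on SD or HFHS diet. Activated conventional T cells (activated Tconv; CD4+ CD25- Foxp3GFP- CD44hi CD62Llow) were sorted from the hypothalamus and from the rest of the brain (rest brain). Regulatory T cells (Tregs) were sorted from the same tissues, with no gate stated for this experiment and CD4+ CD25+ Foxp3GFP+ given for the pilot. This gave 16 libraries of activated Tconv and 16 of Tregs from the hypothalamus, and 13 and 14 from rest brain. Each combination of strain, diet, tissue and cell type had 2 to 4 libraries. The study's flow cytometry of brain CD4+ T cells set aside cells positive for CD8a, CD11b, CD11c, CD14, F4/80 or B220. Each library came from pooled mice, so the spread between single mice was not measured. In the study's methods, females were used for Balb/c and males for C57Bl/6J, so strain and sex cannot be told apart. The methods start the diets at 6 weeks of age, and the weeks on diet of these mice are not given in the sources used here. The pilot had 8 libraries of hypothalamic T cells with 1 library a condition: CD4 T cells of low activation (naive and CD44- in the labels, CD25- with low to intermediate CD44 in the methods) and Tregs of Balb/c Foxp3GFP mice after 16 weeks of SD or HFHS diet (9 pooled mice each), and CD4 T cells and Tregs of leptin-deficient ob/ob mice and C57Bl/6J wild-type (WT) mice (7 pooled mice each), and the labels give females for all of its pools.

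A cell that divides must first license its replication origins. The origin recognition complex (Orc1, Orc6), Cdc6 and Cdt1 load the ring-shaped helicase Mcm2 to Mcm7 onto DNA in G1, and Mcm10, Cdc45 and the GINS complex (Gins1 to Gins4) turn it into the moving helicase at the start of S phase. Primase and polymerase alpha start each new strand, the clamp loader (Rfc1 to Rfc5) places the Pcna ring that holds polymerases delta and epsilon, the RPA trimer covers bare single strands, and Fen1 and Lig1 trim and seal Okazaki fragments. Ribonucleotide reductase (Rrm1, Rrm2), thymidylate synthase (Tyms), thymidine kinase (Tk1) and dUTPase (Dut) set the supply of DNA building blocks, while Chaf1a, Chaf1b and Uhrf1 restore nucleosomes and DNA methylation on the daughter strands. Many of these genes are transcribed at the G1/S transition under E2F factors, and resting T cells hold little of their RNA while T cells that proliferate after activation hold much more.

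Letters of E2F type lie close to the start of several of these genes. RefSeq windows of 300 bases (250 before to 50 after a gene's start, build GRCm38.p6) were at hand for 36 of the 43 genes. The letters TTTCCCGC, TTTCGCGC, TTTGCCGC or TTTGGCGC, searched on both strands as E2F-type sequence, stood in the window of 14 of the 36 (38.9%), against 704 of 27025 genes with a window (2.60%). These 14 were Cdc6, Cdt1, Gins3, Lig1, Mcm3, Mcm5, Mcm6, Mcm7, Orc1, Pola1, Pold1, Pole2, Rfc3 and Uhrf1. The CCAAT letters of the NF-Y box stood in 23 of the 36 (63.9%), against 41.1% of all genes with a window, and the letters TTTGAA or TTCGAA of the CHR element in 7 (19.4%), against 21.7%. A match describes the letters of a window and is not a measured binding site. The windows below are those of the 4 licensing genes that passed the test between hypothalamus and rest brain (described further on), printed 5′ to 3′ on the gene's strand with the E2F-type letters in capitals; 2 matches overlap in Mcm5 and 2 of the 3 in Mcm6, and Mcm2 has none.
Mcm5 (chr8:75109259-75109558, plus strand): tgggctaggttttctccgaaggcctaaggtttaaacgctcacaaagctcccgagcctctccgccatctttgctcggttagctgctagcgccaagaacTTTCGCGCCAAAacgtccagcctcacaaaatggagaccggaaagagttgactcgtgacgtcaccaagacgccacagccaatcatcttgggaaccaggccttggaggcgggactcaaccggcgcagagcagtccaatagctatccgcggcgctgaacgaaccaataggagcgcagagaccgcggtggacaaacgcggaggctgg
Mcm6 (chr1:128359656-128359955, minus strand): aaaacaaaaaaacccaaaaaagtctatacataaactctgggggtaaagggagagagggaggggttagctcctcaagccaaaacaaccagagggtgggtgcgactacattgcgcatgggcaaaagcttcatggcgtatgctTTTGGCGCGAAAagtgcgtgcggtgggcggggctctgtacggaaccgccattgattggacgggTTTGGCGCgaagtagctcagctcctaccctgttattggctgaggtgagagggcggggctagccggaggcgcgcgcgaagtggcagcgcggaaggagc
Mcm7 (chr5:138171834-138172133, minus strand): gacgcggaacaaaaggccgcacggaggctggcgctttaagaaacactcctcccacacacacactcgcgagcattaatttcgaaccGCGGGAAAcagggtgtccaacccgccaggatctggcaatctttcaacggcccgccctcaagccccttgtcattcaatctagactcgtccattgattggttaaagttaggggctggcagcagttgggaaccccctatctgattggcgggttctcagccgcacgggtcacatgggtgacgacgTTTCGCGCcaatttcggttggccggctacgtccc
Mcm2 (chr6:88898731-88899030, minus strand): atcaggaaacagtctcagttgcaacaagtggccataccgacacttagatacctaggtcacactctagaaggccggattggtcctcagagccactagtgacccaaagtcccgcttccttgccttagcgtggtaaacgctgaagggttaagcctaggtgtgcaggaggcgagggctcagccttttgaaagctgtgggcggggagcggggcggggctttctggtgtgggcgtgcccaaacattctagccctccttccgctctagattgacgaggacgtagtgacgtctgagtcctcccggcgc
The first match began 153 bases before the start in Mcm5, 110 before it in Mcm6 and 165 before it in Mcm7, for which RefSeq lists a further start with no match in its window.

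The libraries differed in quality along the lines of the comparisons. Totals ran from 1710109 to 38314149 estimated counts on named genes. More than 10 counts were reached by 8947 to 10059 genes in activated Tconv of the hypothalamus and 10158 to 11422 in rest brain, but by 2095 to 9836 (median 4443) in hypothalamic Tregs and 5392 to 9540 in rest-brain Tregs, and 10 of the 16 hypothalamic Treg libraries stayed below 5000 genes. Markers of the sorted cells were present: the 8 T cell markers found summed to 5816 to 15016 CPM (counts scaled to a common library total) in all libraries but 1 of hypothalamic Tregs, and the Treg markers to a median of 2731 and 3630 CPM in Tregs of hypothalamus and rest brain against 491 and 598 CPM in activated Tconv. In the hypothalamus 3 Treg libraries stood apart. The C57Bl/6J SD library of pool 11_15 held 210 CPM of T cell markers beside 13098 CPM of endothelial markers. The Balb/c SD library of pool 32_36 held 20838 CPM of microglia markers, and the C57Bl/6J HFHS library of pool 72_76 held more than 10 counts of 41 of the 43 genes, where the median library of its kind held 11.5. Counts of genes that passed, and the medians these libraries moved most, are also given without them.

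The mean level of the 43 genes was lowest in Tregs of the hypothalamus. Single genes departed from this order: Mcm10, Cdc6 and Orc1 had a median of 0 CPM also in hypothalamic activated Tconv (at 0 in 10 of 16 libraries each), and in rest brain Mcm4 (139 against 82 CPM) and Mcm2 (56.9 against 24.1 CPM) had the higher median in Tregs. As a summary over the 43 genes, the mean of log2(CPM + 1) was 4.94 ± 0.495 (SD, n = 16) in activated Tconv of the hypothalamus, 4.44 ± 0.378 (n = 13) in activated Tconv of rest brain, 3.90 ± 1.24 (n = 14) in Tregs of rest brain and 1.95 ± 1.36 (n = 16) in Tregs of the hypothalamus (1.66 ± 0.733 without pool 72_76, and 1.68 ± 0.640 in the 13 left without all 3 libraries that stood apart). Single libraries ran from 4.12 to 5.79, from 3.74 to 4.96, from 2.09 to 6.0 and from 0.426 to 6.29 in the same order, so Treg libraries were spread more widely than activated Tconv libraries, in the hypothalamus most of all through 1 library. Without pool 72_76 hypothalamic Tregs ran from 0.426 to 2.70, below every activated Tconv library, and the ranges of the other 3 kinds overlapped. In bulk libraries, fewer cells in cycle and less RNA per cell cannot be told apart. The count of detected genes moved with this mean inside the Tregs: Spearman's rho between the mean and the number of genes above 10 counts was 0.956 over 16 hypothalamic and 0.846 over 14 rest-brain Treg libraries, against 0.229 and -0.192 in activated Tconv, both values coming from the same library. The mean of log2(CPM + 1) over 9558 genes of at least 5 CPM also reached its lowest values in hypothalamic Tregs. It ran from 1.60 to 4.59 there, from 3.38 to 4.95 in rest-brain Tregs and from 4.51 to 5.34 in activated Tconv. What detection contributed to the low Treg level was not tested beyond the comparison of better detected libraries given further on.

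**Figure D1:**
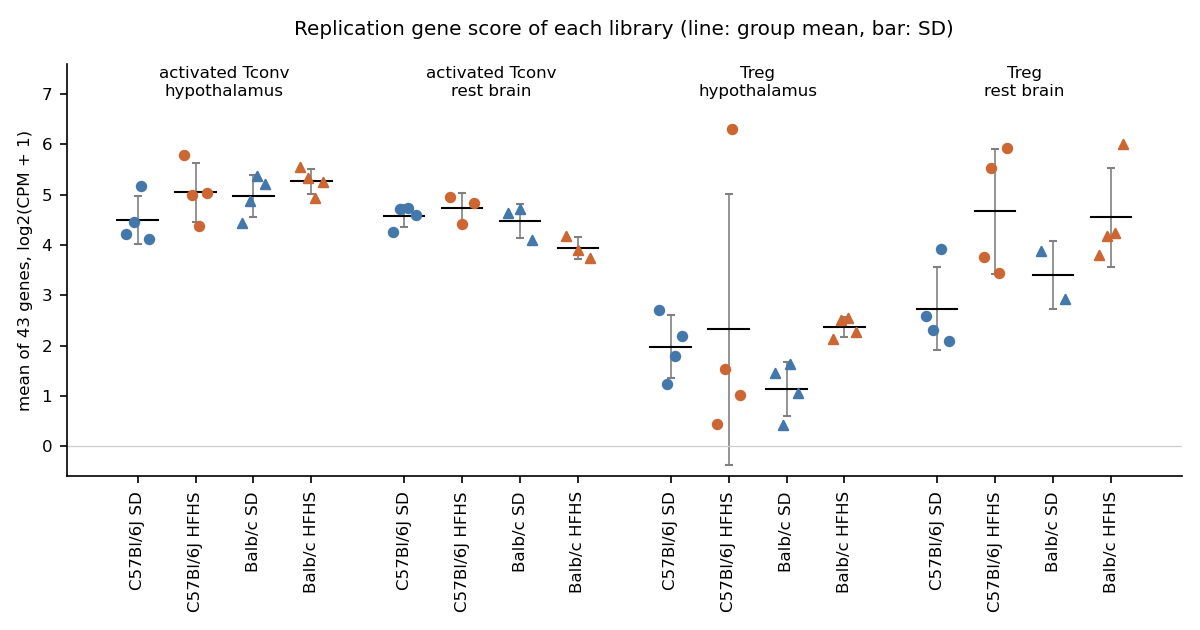
Mean of log2(CPM + 1) over the 43 genes (y axis) for each of the 59 libraries (points), by strain, diet, tissue and cell type (x axis), with the mean and SD of each group as lines. Activated Tconv libraries sit between 3.74 and 5.79, and Treg libraries spread from 0.426 to 6.29.

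The order of the roles was similar in both activated arms. The lagging strand and RPA genes (6.32 ± 0.255 in hypothalamus and 5.53 in rest brain) and the clamp with its loader (6.15 ± 0.395 and 6.08 ± 0.264) had the highest mean of log2(CPM + 1), followed by nucleotide supply (5.46 ± 0.993 and 5.16), licensing (4.98 ± 0.522 and 4.30 ± 0.485) and polymerases (4.54 and 3.94), with helicase activation (3.41 and 3.21) and the chromatin genes (3.38 and 2.41) lowest. Tregs of the hypothalamus were below both activated arms in every role, from 3.10 for the clamp to 0.879 for the chromatin genes (2.80 and 0.685 without the 3 libraries that stood apart). Per transcript length, over the 59 libraries, Rpa3, the smallest RPA subunit, had the highest median of 224 TPM (transcripts scaled for length and for the library total), followed by Pcna (219 TPM) and the clamp loader subunit Rfc2 (92.9 TPM). At the other end Mcm10, Orc1, Cdc6, Pole and Chaf1a had a median of 0 TPM and were listed at 0 in 40, 43, 38, 32 and 32 of the 59 libraries. Mcm10, Orc1 and Cdc6 act at the origin before or at its firing, Pole is the catalytic subunit of polymerase epsilon and Chaf1a the large subunit of the chaperone CAF-1.

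**Figure D2:**
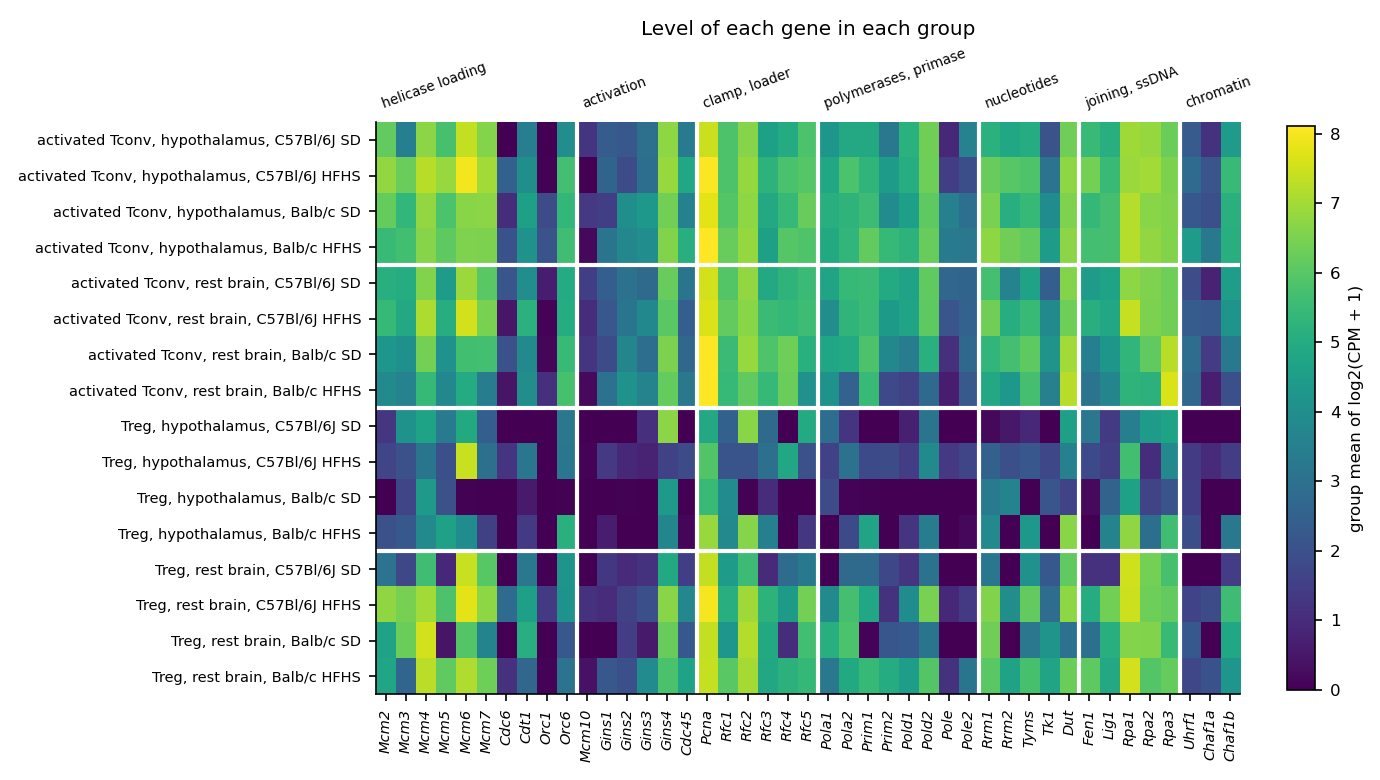
Mean of log2(CPM + 1) in colour for each of the 43 genes (columns, ordered by role) in each group of libraries (rows, by cell type, tissue, strain and diet). The Pcna column is high in all activated Tconv groups, and Mcm10, Orc1, Cdc6, Pole and Chaf1a are low in most rows.

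Tregs were compared with activated Tconv of the same tissue, to ask how the replication genes differ between the suppressive and the effector compartment. In the hypothalamus 10 of the 43 genes were lower in Tregs and none was higher by edgeR's quasi-likelihood test at an adjusted p under 0.05, where 13.2% of the 11156 genes tested were lower and 0.538% higher. The genes that fell were 4 of the 6 helicase activation genes (Mcm10, Gins2, Gins3, Cdc45), 3 of the 8 polymerase genes (Prim2, Pole, Pole2), the licensing gene Orc1, the clamp loader gene Rfc4 and Chaf1a, and no nucleotide supply or lagging strand gene passed. Apart from Rfc4 these genes held places from 30 to 43 of the 43 by median TPM. Each was at 0 in 9 to 16 of the 16 Treg libraries, and the part of low counts in this split by role was not tested. Of the 43, 41 had a fitted difference below 0, with a median of -2.49 on the log2 scale against -0.96 over all genes tested (also -2.49 with Orc1 at its counting bound, at least 335-fold lower by 3 counts over the 16 Treg libraries, all at 0).

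Rfc4 ran from 8.47 to 98.1 CPM (median 54.1) in the 16 activated Tconv libraries, and was at 0 in 12 of the 16 Treg libraries with a highest value of 177 CPM. Gins2, a GINS subunit, had a median of 11.2 CPM (0 to 20.7) in activated Tconv and was at 0 in 14 Treg libraries, highest 12.3 CPM. Prim2, the large primase subunit, had a median of 29.4 CPM (0 to 52.7) against 0 in 13 Treg libraries, highest 151 CPM. The ranges overlapped for all 3 genes, and the highest Treg library was above every activated library for Rfc4 and Prim2. The fitted log2 differences were -10.95 ± 2.01 (SE; adjusted p = 0.000222) for Rfc4, -8.32 ± 1.97 (adjusted p = 0.00266) for Gins2 and -9.63 ± 2.32 (adjusted p = 0.0031) for Prim2, sizes fitted with many libraries at 0 and far larger than the ratio of the means (51.8 ± 23.4 against 19.6 ± 50.7 CPM for Rfc4).

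None of the 5 genes followed in every comparison passed here. Pcna ran from 115 to 356 CPM (median 229) in activated Tconv and from 0 to 532 CPM (median 99.3) in Tregs, a difference of -0.70 ± 0.70 (adjusted p = 0.68). Mcm5 had medians of 65.3 and 0.644 CPM, Rrm2 of 73.3 and 0 CPM, Tyms of 42.7 and 0 CPM and Tk1 of 15 and 0 CPM (adjusted p from 0.244 to 0.937). Most Treg libraries were at or near 0, while single ones lay above every activated library for Mcm5 (259 CPM), Tyms (375 CPM) and Tk1 (364 CPM).

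The count in the hypothalamus turned on which Treg libraries were used. Without the C57Bl/6J HFHS library of pool 72_76, 20 genes were lower and the median over the 43 went from -2.49 to -4.68, and without that of pool 11_15 or 32_36, 10 and 9 were (medians -2.40 and -2.34). Within Balb/c alone 10 genes were lower, beside 1401 of 10177 genes, and within C57Bl/6J alone none, beside 359 of 10166. Restricted to the Treg libraries with at least 5000 genes above 10 counts, an alternative added after seeing the data that leaves 6 of 16 and keeps pools 72_76 and 11_15, none of the 43 passed and 270 of 13788 genes were lower, with a median of -1.35 over the 43 genes against -0.27 over all. DESeq2's Wald test called 18 of the 43 lower and 2498 of the 11156. More of the 43 were called by limma-voom and with the pool as a block (counts given at the end). In those fits 7341 of 11156 and 5421 of 11093 genes were lower.

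In rest brain, where Treg libraries were better detected, the 2 cell types differed in few replication genes: Rpa1 and Mcm6 were higher in Tregs and Rpa3 lower. These 3 compare with 3.73% of 13793 genes higher and 12% lower. Of the 43 genes 20 were above 0, and the median difference was -0.14 against -0.35 over all genes tested. Rpa1, the large DNA-binding RPA subunit, ran from 25.3 to 180 CPM (median 61.3) in activated Tconv and from 74.9 to 313 CPM (median 178) in Tregs, and rose by 1.02 ± 0.26 on the log2 scale (adjusted p = 0.00666). Rpa3 ran from 61.7 to 211 CPM (median 119) and from 29.4 to 96 CPM (median 64.2), and fell by 1.01 ± 0.26 (adjusted p = 0.00751). Mcm6, a helicase subunit, had medians of 94.8 and 178 CPM and rose by 0.99 ± 0.35 (adjusted p = 0.0494). The ranges overlapped for all 3. With the pool as a block the call of Rpa1 was kept and those of Rpa3 (-0.91, adjusted p = 0.0704) and Mcm6 (1.06, adjusted p = 0.0953) were lost. The CD8 genes Cd8a and Cd8b1 also moved with the cell type, with a median sum of 277 CPM in activated Tconv and 21.6 CPM in Tregs. In the hypothalamus these sums were 219 and 0.0691 CPM, and their part was not tested.

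Within Balb/c alone the difference was 1.60 for Rpa1 and -1.86 for Rpa3, which passed, and 1.39 for Mcm6, which did not (adjusted p = 0.0959). Within C57Bl/6J the 3 differences were 0.58, -0.35 and 0.72 and none of the 43 genes passed. Over all genes 920 were higher and 1471 lower in Balb/c alone, and 130 and 296 in C57Bl/6J alone. Mcm6 kept its call in 9 of 27 fits without 1 library, and Rpa3 lost its call when counts were corrected for GC content. Across the 9123 genes of at least 5 CPM the difference between cell types moved with a gene's GC content (Spearman's rho 0.263, a description over genes). Pcna (medians 221 and 163 CPM), Mcm5 (21.6 and 17.6), Rrm2 (21.9 and 0), Tyms (42.5 and 55.5) and Tk1 (11.3 and 14.4 CPM) did not pass, with adjusted p from 0.631 to 0.922.

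The tissue and the cell type were then tested together for their interaction. Only Mcm10, the scaffold of helicase activation, passed, with -6.12 ± 2.02 (adjusted p = 0.0398), a lower Treg-to-activated ratio in the hypothalamus than in rest brain. Over all 14585 genes, 5.86% were higher and 3.58% lower. Mcm10 was at 0 in 15 of 16 hypothalamic Treg libraries (highest 0.247 CPM), in 10 of 16 hypothalamic activated libraries, in 11 of 14 rest-brain Treg and in 4 of 13 rest-brain activated libraries, and its highest value anywhere was 24.3 CPM. The call was lost in 9 of 59 fits without 1 library, under DESeq2 and in the better detected libraries. By limma-voom the difference turned to 0.12 (adjusted p = 0.960) while 28 other genes of the 43 passed, all lower. In that limma-voom fit 4757 of 14585 genes were lower and 1119 higher. Without the libraries of pools 11_15, 32_36 or 72_76, the count of genes that passed was 2, 1 and 8. The 2 comparisons of Tregs with activated Tconv and the 2 of the tissues use the same libraries, so their results are not independent.

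**Figure D3:**
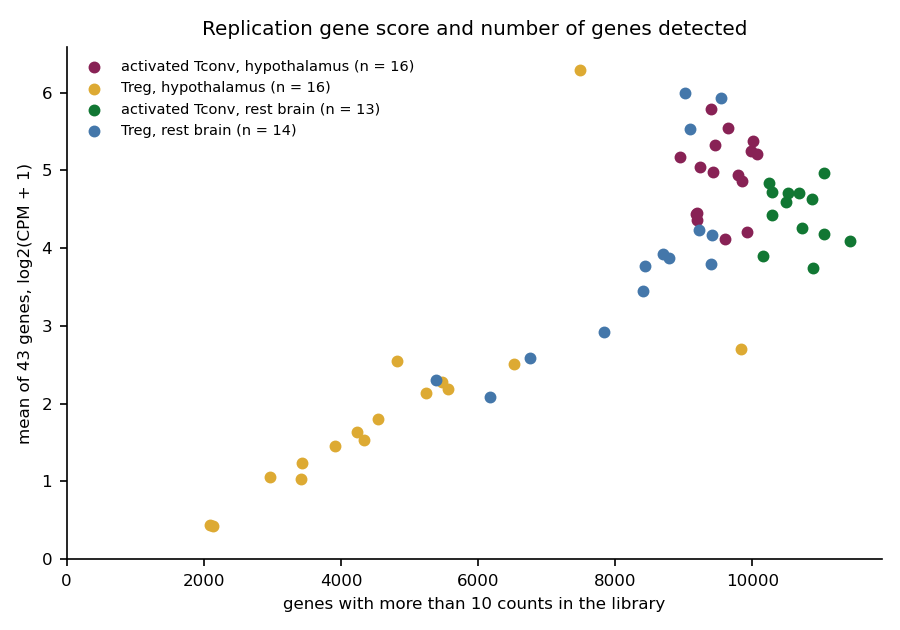
Mean of log2(CPM + 1) over the 43 genes (y axis) against the number of genes above 10 counts (x axis) for the 59 libraries, coloured by cell type and tissue. Hypothalamic Treg libraries run from 2095 to 9836 genes with the mean moving along, and activated Tconv libraries cluster between 8947 and 11422 genes.

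Genes of the same pathway outside the 43 were counted in the same fit, where 13.2% of all genes were lower in hypothalamic Tregs (270 of 13788 in the better detected libraries). Of 38 other replication factors tested 7 were lower in Tregs and none higher, among them Chtf18, which loads the clamp for cohesion (-9.84), and Dbf4, the activator of the origin-firing kinase (-9.45). In the E2F and G1/S list 8 of 26 were lower, led by E2f6 (-9.54) and Skp2 (-8.66), as were 3 of 12 proliferation references, among them Cdk1 (-9.95) and Plk1 (-8.48). Samhd1, which degrades deoxynucleotides and is thus the counterpart of the supply enzymes, was higher in Tregs of both tissues, by 0.97 ± 0.28 (adjusted p = 0.0128) in hypothalamus and 1.07 ± 0.14 (adjusted p = 3.25e-06) in rest brain. In rest brain Ssrp1, a FACT histone chaperone subunit (0.81), the purine enzyme Adsl (0.78) and the pocket protein Rbl2 (0.86) were also higher in Tregs, and Pole4 (-0.75), Recql4 (-4.01), Btg1 (-0.89) and Tob1 (-1.36) lower.

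Between the tissues, some of the licensing and most of the lagging strand genes were higher in activated Tconv of the hypothalamus than in those of rest brain. By edgeR 12 of the 43 genes were higher in the hypothalamus and none lower, where 5.64% of the 12685 genes tested were higher and 11.9% lower. They were 4 of 10 licensing genes (Mcm2, Mcm5, Mcm6, Mcm7), 4 of 5 lagging strand and RPA genes (Fen1, Lig1, Rpa1, Rpa2), the catalytic and accessory polymerase delta genes Pold1 and Pold2, the clamp loader gene Rfc5 and the histone chaperone gene Chaf1b. No helicase activation and no nucleotide supply gene passed, and Rpa3 (-0.45) lay below 0. Of the 43, 31 were above 0, with a median of 0.37 against -0.11 over all genes tested. Pool names recur in both tissues, and with the pool as a block 2 of the 12 passed (median 0.14), while over all genes 65 were higher and 85 lower. By limma-voom 10 of the 43 were higher and 3 lower, where 709 of 12685 genes were higher and 2312 lower.

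Fen1, the flap endonuclease of Okazaki fragments, ran from 33.4 to 99.5 CPM (median 48.7) in the 16 hypothalamic libraries and from 3.13 to 55.1 CPM (median 14.5) in the 13 of rest brain, and was 1.57 ± 0.23 higher on the log2 scale (adjusted p = 6.94e-05). Mcm5 ran from 38.9 to 196 CPM (median 65.3) against 4.1 to 53.5 CPM (median 21.6), a difference of 1.59 ± 0.29 (adjusted p = 0.000318). Mcm2 ran from 23.2 to 135 CPM (median 73.5) against 6.7 to 103 CPM (median 24.1), a difference of 1.37 ± 0.25 (adjusted p = 0.000391). For each gene the hypothalamic median lay well above that of rest brain, and the ranges overlapped in part. The other 9 differences ran from 0.56 ± 0.17 for Rpa2 (adjusted p = 0.0173) to 1.43 ± 0.37 for Chaf1b (adjusted p = 0.00621), with Mcm7 at 1.15 ± 0.25 (adjusted p = 0.00178) and Lig1 at 1.09 ± 0.29 (adjusted p = 0.00888).

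The clamp and the nucleotide enzymes did not pass. Pcna had medians of 229 and 221 CPM (-0.09 ± 0.15, adjusted p = 0.773), Tyms of 42.7 and 42.5 CPM (0.09 ± 0.24) and Tk1 of 15 and 11.3 CPM (0.08 ± 0.62). Rrm2, the S phase subunit of ribonucleotide reductase, had medians of 73.3 and 21.9 CPM with overlapping ranges (0 to 252 and 1.05 to 116 CPM), and its difference of 0.94 ± 0.61 did not pass (adjusted p = 0.343). Helicase genes passed here and genes of the building blocks did not, a difference that was not itself tested.

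**Figure D4:**
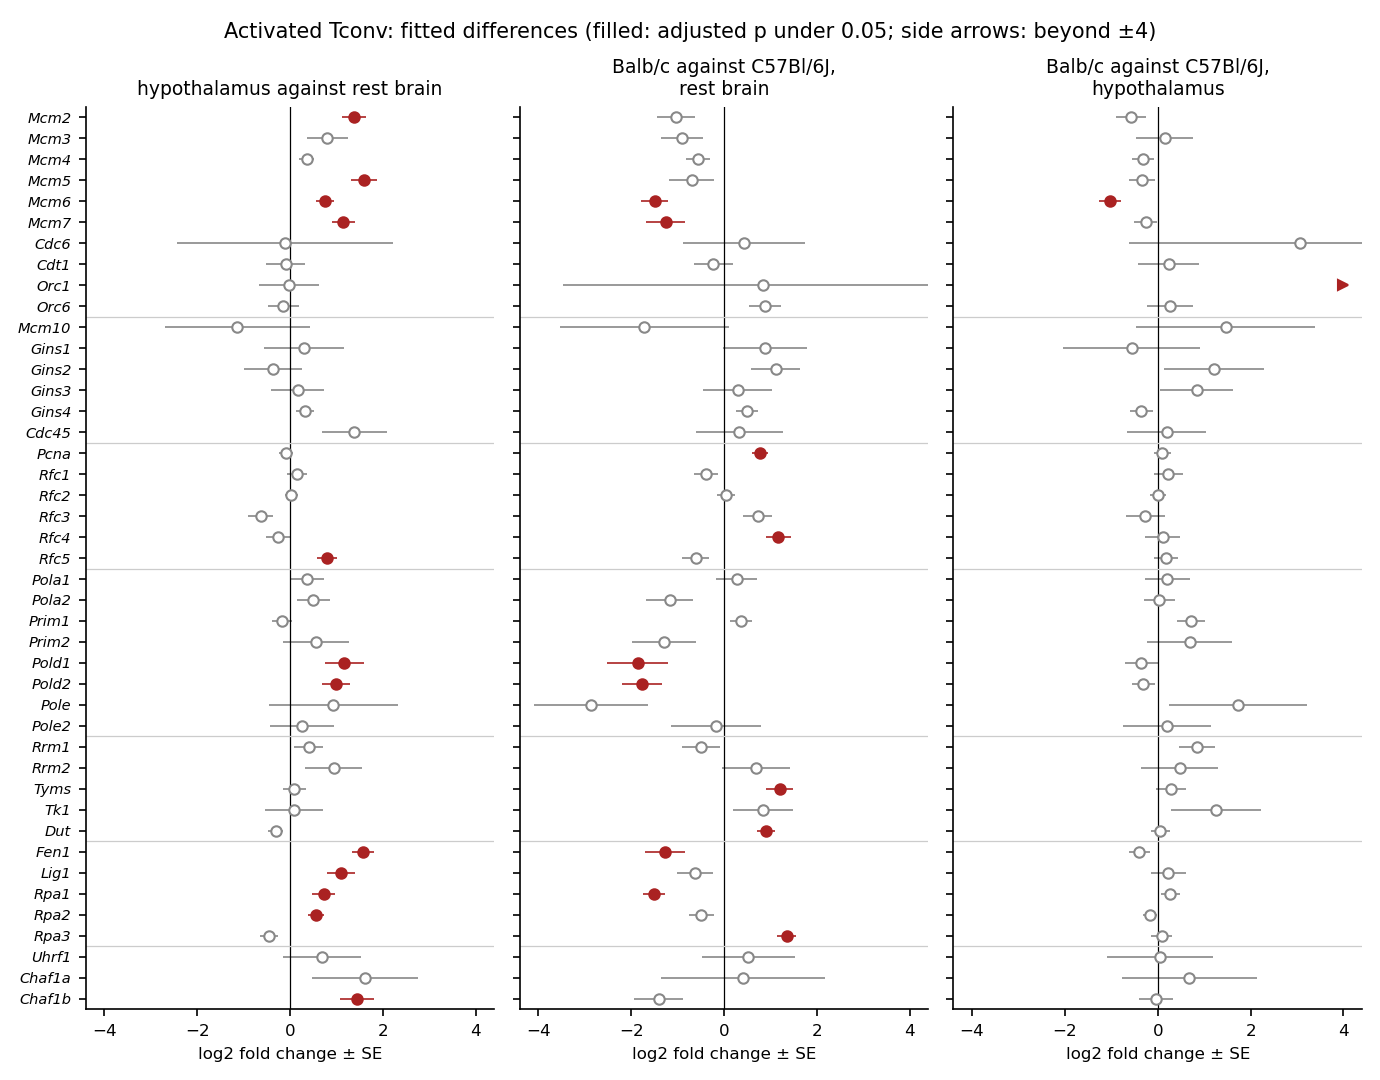
Fitted log2 differences with their SE (x axis) for the 43 genes (rows, by role) in activated Tconv, between hypothalamus and rest brain and between the strains in rest brain and in the hypothalamus, with an arrow for a value beyond the axis. Filled points passed at an adjusted p under 0.05, as 12 genes did for the tissue, 11 for the strain in rest brain and 2 for the strain in the hypothalamus.

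The tissue difference pointed the same way in both strains for Fen1, Mcm5 and Mcm2, but passed in Balb/c only. Within Balb/c the differences were 2.01, 1.77 and 1.57 and 19 of the 43 genes passed, 14 higher and 5 lower, beside 1215 higher and 1769 lower of 11683 genes. Within C57Bl/6J they were 1.13, 1.37 and 1.13 and none of the 43 passed, beside 0 higher and 1 lower of 11360 genes, so far fewer genes of any kind passed in that strain. The strains themselves are compared by the interaction given below. The difference also moved with the GC content of a gene (Spearman's rho 0.369 over 9079 genes and 0.43 over the members, a description), and with counts corrected for GC content 11 genes passed. In Balb/c the libraries themselves differed by tissue. The 50 most abundant genes took 18 to 19.9% of counts in the hypothalamus and 22.8 to 27.8% in rest brain. T cell markers summed to 10454 to 11656 and 9045 to 10292 CPM, and microglia markers to at most 160 and 794 CPM. In C57Bl/6J the first 2 of these overlapped between the tissues, and their part was not tested.

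Other genes of the same lists were mixed. Ssrp1 (0.72), the maintenance methyltransferase Dnmt1 (0.85) and the folate enzyme Mthfd1 (1.19) were higher in the hypothalamus and Orc4 (-0.51) and the kinase Cmpk1 (-0.50) lower. Of 39 other replication factors 2 were higher and 1 lower, and of 34 other nucleotide genes 5 were higher and 1 lower. In the E2F and G1/S list the D-type cyclin genes split, with Ccnd3 (1.05, adjusted p = 0.000576) and Ccnd2 (0.41) higher and Ccnd1 (-5.10) lower. Btg1, which restrains proliferation, was lower (-0.46), and none of the 12 proliferation references passed in either direction.

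Among Tregs most genes had fitted differences of the opposite sign, below 0 in the hypothalamus, and 1 gene passed. Rfc4 was lower in the hypothalamus, with a fitted log2 difference of -9.13 ± 2.56 (adjusted p = 0.032) and 12 of 16 libraries at 0 against 4 of 14 (median 30.3 CPM, highest 115 CPM) in rest brain. Of all genes tested 5.37% were lower and 0.0803% higher in the hypothalamus. Only 5 of the 43 genes were above 0, with a median of -1.88 against -0.88 over all genes tested (also -1.88 with Orc1 at its counting bound). The Rfc4 call was lost with the pool as a block, in C57Bl/6J alone and in the better detected Treg libraries (median -0.75 over the 43 genes), and in 4 of 30 fits without 1 library, namely those without pool 26_31, 06_10 or 11_14 of hypothalamic Balb/c or pool 37_41 of rest-brain Balb/c. The count of genes that passed ran from 0 to 7 in those fits, with 7 without pool 72_76 (median -4.66), 3 without pool 11_15 (-1.97) and 1 without pool 32_36 (-1.72). Pcna had medians of 99.3 and 163 CPM, Mcm5 of 0.644 and 17.6 and Tyms of 0 and 55.5 CPM in hypothalamus and rest brain, and none of these passed.

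Between the strains, genes passed in both directions in rest brain, at shares near those over all genes. In activated Tconv of rest brain 11 of the 43 genes differed between Balb/c and C57Bl/6J, 5 higher in Balb/c and 6 lower, where 12.2% of 12152 genes were higher and 11.4% lower. Higher in Balb/c were the nucleotide enzymes Tyms and Dut, the clamp Pcna, the loader gene Rfc4 and Rpa3. Lower were Rpa1, the helicase genes Mcm6 and Mcm7, the polymerase delta genes Pold1 and Pold2, and Fen1. The median over the 43 genes was -0.18 against -0.03 over all genes tested. Of 8 macrophage or monocyte markers, Ly6c2, a surface protein that some T cells also carry, made nearly the whole sum and moved with the strain (706 to 1401 CPM in C57Bl/6J and 148 to 356 CPM in Balb/c), while Lyz2, Adgre1, Csf1r and Cd14 had medians from 0 to 1.85 CPM in both. The CD8 genes Cd8a and Cd8b1 summed to 1.95 to 739 CPM (median 40.0) in C57Bl/6J and 277 to 483 CPM (median 349.6) in Balb/c, and their part in the strain differences was not tested.

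Of the RPA trimer, Rpa1 and Rpa3 passed in opposite directions and Rpa2 (medians 99.4 CPM in C57Bl/6J and 60.7 CPM in Balb/c, -0.49 ± 0.27, adjusted p = 0.209) did not pass. Rpa3 ran from 61.7 to 119 CPM (median 71.9) in the 7 C57Bl/6J libraries and from 135 to 211 CPM (median 176) in the 6 Balb/c libraries, with no overlap, and was higher in Balb/c by 1.35 ± 0.20 (adjusted p = 0.000102). Rpa1 ran from 61.3 to 180 CPM (median 158) in C57Bl/6J and from 25.3 to 49.2 CPM (median 43.6) in Balb/c, again with no overlap, and was lower in Balb/c (-1.50 ± 0.24, adjusted p = 0.000197). Both calls held under each of 8 alternatives and in each of 13 fits without 1 library. Mcm6 ran from 94.8 to 225 CPM (median 140) against 18 to 66.5 CPM (median 45.1), without overlap (-1.49 ± 0.29, adjusted p = 0.000965). Pold2, the accessory subunit of polymerase delta, ran from 40.9 to 91.5 CPM against 2.3 to 38.7 CPM (-1.76 ± 0.43, adjusted p = 0.00541).

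In the other direction Dut, which keeps uracil out of DNA, ran from 72.8 to 120 CPM (median 91.2) in C57Bl/6J and from 108 to 160 CPM (median 146) in Balb/c (0.91 ± 0.20, adjusted p = 0.00221). Pcna ran from 155 to 222 CPM (median 202) and from 182 to 384 CPM (median 268), a difference of 0.79 ± 0.17 (adjusted p = 0.00226). For both genes the ranges overlapped in part, with the highest libraries all Balb/c. Tyms had medians of 37.2 and 59 CPM (1.20 ± 0.29, adjusted p = 0.00486). Mcm5 (medians 31.7 and 15.5 CPM), Rrm2 (14.5 and 22) and Tk1 (11.1 and 13.4 CPM) did not pass.

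Dut, Pcna, Mcm6 and Pold2 passed among the HFHS libraries alone but not among the SD libraries alone, and Tyms the reverse, while all 5 kept their direction. In all 3 genes passed with SD alone and 9 with HFHS alone. Scaling by library totals in place of the trimmed mean gave 15 genes, 5 higher and 10 lower, where 991 of 12152 genes were higher and 2058 lower. The 50 most abundant genes took 22.8 to 27.8% of the counts in Balb/c libraries of rest brain against 16.4 to 19.7% in C57Bl/6J. The strain difference moved with GC content (Spearman's rho -0.319 over 9056 genes), and with counts corrected for GC content 10 of the 43 genes passed.

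**Figure D5:**
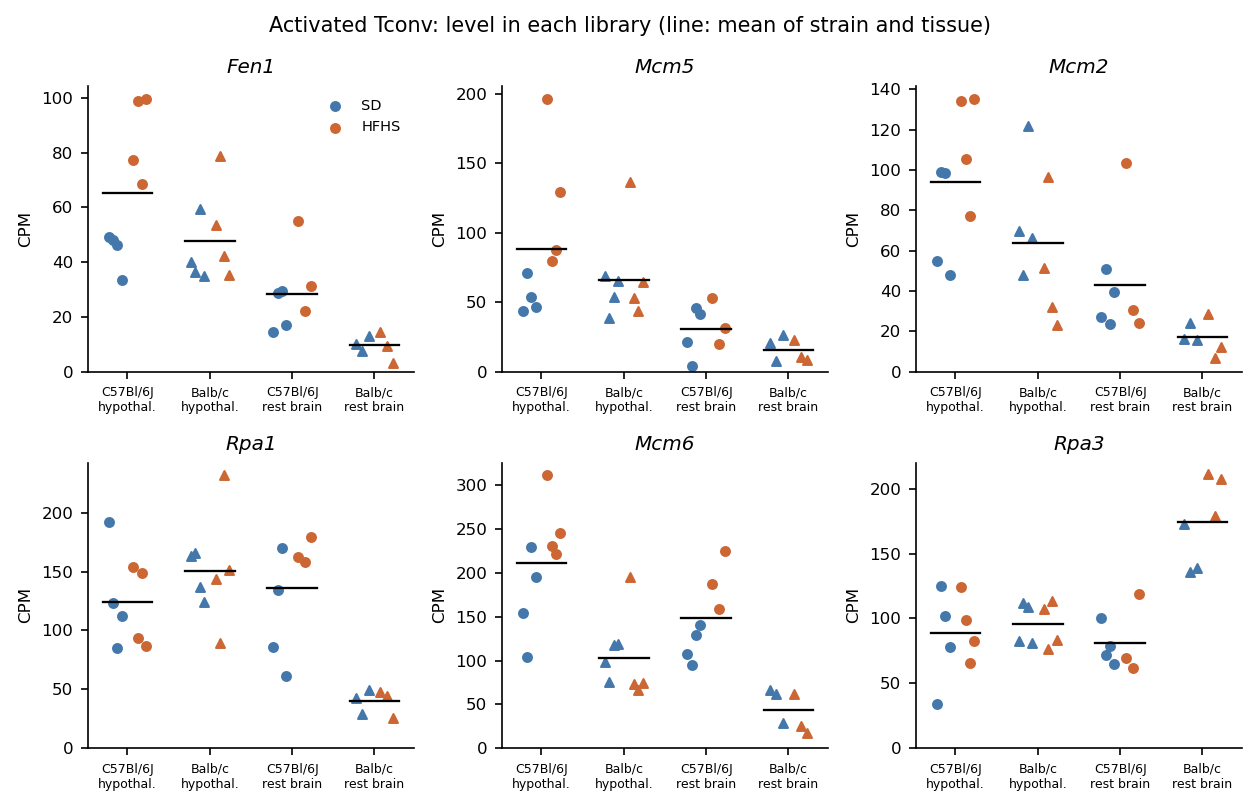
CPM (y axis, from 0) of Fen1, Mcm5, Mcm2, Rpa1, Mcm6 and Rpa3 in each activated Tconv library (points, coloured by diet), by strain and tissue (x axis), with lines at the means. Rpa3 lies between 135 and 211 CPM in the Balb/c libraries of rest brain and at most at 119 CPM in those of C57Bl/6J, and Rpa1 lies the other way round.

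In activated Tconv of the hypothalamus, where Ly6c2 also differed (487 to 1035 CPM in C57Bl/6J and 64.7 to 245 CPM in Balb/c), only Mcm6 and Orc1 differed between the strains, against 0.957% of 10759 genes higher and 1.11% lower. Mcm6 ran from 105 to 311 CPM (median 225) in C57Bl/6J and from 66.9 to 195 CPM (median 87.1) in Balb/c, and was lower in Balb/c with -1.03 ± 0.23 (adjusted p = 0.022), the direction it had in rest brain. Orc1, the ATPase of the origin recognition complex, was at 0 in 7 of 8 C57Bl/6J libraries (highest 0.104 CPM) and ran from 0 to 17.5 CPM (median 5.56) in Balb/c, with 3 at 0. Its fitted difference was 8.67 ± 2.07 (adjusted p = 0.0321), and this call was kept in 4 of the 12 fits without 1 library that could test it. The call of Mcm6 was lost without the HFHS library of Balb/c pool 26_31 and in either diet alone. The Mcm6 difference stayed from -1.33 to -0.76 over these and the other fits. Rpa3 (medians 90.7 and 95.7 CPM) and Rpa1 (118 and 148 CPM) overlapped between the strains in this tissue.

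The change between tissues was therefore tested against the strain, in an interaction added after seeing the data. Rpa1 (1.80 ± 0.32, adjusted p = 0.000683) and Rpa3 (-1.25 ± 0.31, adjusted p = 0.00745) passed, against 4.83% of 12685 genes higher and 5.61% lower. The difference of hypothalamus minus rest brain was greater in Balb/c than in C57Bl/6J for Rpa1 and smaller for Rpa3. Dut came next with -0.79 (adjusted p = 0.0706). For Fen1 (0.87 ± 0.42, adjusted p = 0.206) and Mcm5 (0.35 ± 0.55, adjusted p = 0.799) the strains were not shown to differ. Among genes of the other lists, Ccnd3 (1.57) and Ssrp1 (1.06) were higher in the same test and Nme1 (-0.95) and Nme2 (-1.04), nucleoside diphosphate kinases, lower.

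Among other genes of the pathway in rest brain, the licensing inhibitor Gmnn (1.51), Pole4 (0.88), Nme1 (0.94), Nme2 (0.98) and Btg1 (0.87) were higher in Balb/c, and Ssrp1 (-1.43), Impdh1, which opens guanine nucleotide synthesis (-2.11), Ccnd3 (-1.48) and Ccnd2 (-0.82) lower. In the hypothalamus the FACT subunit Supt16 (2.10) and the centromeric histone gene Cenpa (1.54) were higher in Balb/c.

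In Tregs no replication gene passed between the strains. In the hypothalamus 24 of the 43 genes had enough counts to be tested, and edgeR called none of them and limma-voom none (DESeq2 1), with 1 at an unadjusted p under 0.05, against 0.0131% of 7646 genes called and 3.36% at an unadjusted p under 0.05. The gene was Mcm6, with medians of 131 CPM in C57Bl/6J and 0.0589 CPM in Balb/c (-6.61 ± 3.09, unadjusted p = 0.0421, adjusted p = 1). Rfc5 had the largest difference, with -7.17 ± 4.35 and medians of 14.9 and 0 CPM. In rest brain all 43 were tested and none passed by edgeR, DESeq2 or limma-voom, with none at an unadjusted p under 0.05, against 0.294% of 11578 genes called and 8.84% at an unadjusted p under 0.05. The largest differences were Pola1 (5.16 ± 3.51, medians 0.123 and 22.6 CPM) and Orc1 (-5.01 ± 2.65, at 0 in 6 of 8 and 5 of 6 libraries). Without pool 11_15, 32_36 or 72_76 of the hypothalamus the count stayed 0.

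The diet is the question of the study. No replication gene passed between HFHS diet and SD in activated Tconv of the hypothalamus by edgeR, DESeq2 or limma-voom, nor did any of the 10759 genes tested by edgeR (0%). Of the 43 genes 38 lay above 0, with a median of 0.31 against -0.0087 over all genes, 49.1% of which lay above 0. Members above 0 were 9 of 10 licensing genes, 5 of 5 nucleotide supply genes, 5 of 5 lagging strand and RPA genes, 7 of 8 polymerase genes, 5 of 6 clamp genes, 4 of 6 helicase activation genes and 3 of 3 chromatin genes. At an unadjusted p under 0.05 stood 5 of the 43, against 3.71% of all genes.

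Mcm5 ran from 38.9 to 71 CPM (median 53.8) in the 8 SD libraries and from 44 to 196 CPM (median 83.8) in the 8 HFHS libraries, with a difference of 0.82 ± 0.28 (unadjusted p = 0.00892, adjusted p = 1). Tyms ran from 20.3 to 67.9 CPM (median 35.3) and from 27.6 to 120 CPM (median 74.6), with 0.93 ± 0.33 (unadjusted p = 0.012). Pcna ran from 115 to 283 CPM (median 202) and from 199 to 356 CPM (median 279), with 0.47 ± 0.19 (unadjusted p = 0.0198). In each the highest HFHS libraries lay above every SD library and the lower ones among them. Fen1 had medians of 43.2 and 72.9 CPM (0.66 ± 0.23, unadjusted p = 0.00959), Rrm2 of 46.8 and 103 CPM and Tk1 of 8.16 and 29 CPM. The largest fitted differences belonged to 2 genes of low counts, Mcm10 (-6.70 ± 2.36, at 0 in 4 SD and 6 HFHS libraries) and Cdc6 (5.23 ± 3.35, at 0 in 6 and 4), and the adjusted p was 1 for all of these genes.

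Split by strain, Fen1 and Mcm5 are given as 2 examples picked after their values were seen. In C57Bl/6J neither overlapped between the diets, but the share of all genes without overlap was not counted, so this describes these 2 genes only. Fen1 ran from 33.4 to 49.1 CPM in 4 SD libraries and from 68.7 to 99.5 CPM in 4 HFHS libraries, and Mcm5 from 44.1 to 71 CPM and from 79.9 to 196 CPM. In Balb/c both overlapped, Fen1 with 34.8 to 59.3 and 35.4 to 78.8 CPM and Mcm5 with 38.9 to 69.2 and 44 to 137 CPM. Neither strain alone gave a gene that passed, and the difference between the strains in the diet effect was not tested.

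The reference genes of the cell cycle were not called either. Top2a ran from 4.21 to 83.7 CPM (median 21.5) on SD and from 27.6 to 172 CPM (median 51.4) on HFHS diet, with 1.84 (unadjusted p = 0.00628), and all 12 proliferation references lay above 0, with a median of 1.68. Of 38 other replication factors 30 lay above 0 (median 0.28), and of 14 quiescence genes 6 did (median -0.060). The mean of log2(CPM + 1) over the 43 genes was 4.73 ± 0.488 on SD and 5.15 ± 0.431 on HFHS diet (n = 8 each), a gap of 0.42 beside a pooled SD of 0.46.

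In activated Tconv of rest brain no replication gene passed between the diets. The mean of log2(CPM + 1) over the 43 genes was 4.57 ± 0.217 (n = 4) on SD and 4.74 ± 0.282 (n = 3) on HFHS diet in C57Bl/6J, and 4.48 ± 0.338 and 3.94 ± 0.223 (n = 3 each) in Balb/c, and the strains were not tested against each other for the diet. The median difference was 0.027 within C57Bl/6J and -0.34 within Balb/c. None passed by any of the 3 tools, none of the 12152 genes did by edgeR (0%), and 2 of the 43 stood at an unadjusted p under 0.05 against 4.82% of all genes. These were Cdc6 (medians 3.47 CPM on SD and 0.241 CPM on HFHS diet, -3.74 ± 1.49, unadjusted p = 0.0215, adjusted p = 0.94) and Pold2 (50.8 and 28.2 CPM, -0.92 ± 0.42, unadjusted p = 0.0401). Mcm10 followed in size with -2.43 ± 1.87. Of the 43 genes 22 lay above 0 (median 0.0045 against -0.024 over all genes), and of the 8 polymerase genes none did, with a median of -0.75. Mcm5 (medians 21.6 and 21.2 CPM), Pcna (202 and 228), Rrm2 (13.3 and 22), Tyms (37.2 and 45.3) and Tk1 (11.3 and 13.2 CPM) overlapped between the diets.

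Whether the diet acted differently in the 2 tissues was tested by their interaction, and no gene passed by any of the 3 tools among the 43, nor among 12685 by edgeR (0%). At an unadjusted p under 0.05 stood 3 of the 43 against 6.28% of all genes: Cdc6 (7.17 ± 2.92, unadjusted p = 0.0199, adjusted p = 0.587), Pola2 (1.42, unadjusted p = 0.0332) and Rfc2 (0.57, unadjusted p = 0.0359). Orc1 was next to Cdc6 in size (4.65 ± 2.80). Of the 43, 33 lay above 0, with a median of 0.38 against -0.015 over all genes. A diet difference particular to the hypothalamus was therefore not shown.

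In Tregs of the hypothalamus 24 genes could be tested between the diets. None passed by edgeR or limma-voom (DESeq2 called 2), none of 7646 genes passed by edgeR (0%), and 2 stood at an unadjusted p under 0.05 against 2.52% of all genes. Prim1, the catalytic primase subunit, was at 0 in 7 of 8 SD libraries (highest 0.0983 CPM) and ran from 0 to 128 CPM (median 27.5) on HFHS diet (unadjusted p = 0.00188, adjusted p = 0.551). Tyms was at 0 in 7 of 8 SD libraries (highest 11.3 CPM) and ran from 0 to 375 CPM (median 17.2) on HFHS diet (unadjusted p = 0.0373). Their fitted differences, 11.46 ± 3.31 and 8.19 ± 3.73, rest on libraries at 0. Pcna (medians 78.8 and 160 CPM) and Mcm5 (0.644 and 24.3 CPM) overlapped, and the median over the genes tested was 1.23 against 0.24 over all genes. No gene was called without pool 11_15, 32_36 or 72_76, and the median went to 1.20, 0.90 and 0.02 in that order. Within Balb/c alone it was -0.45 over the 12 genes that could be tested and within C57Bl/6J alone -0.39 over 16, so the genes differ from the 24. The mean of log2(CPM + 1) over all 43 genes ran from 0.426 to 1.64 on SD (1.14 ± 0.537) and from 2.13 to 2.55 on HFHS diet (2.37 ± 0.197) in Balb/c, without overlap (n = 4 each). Over 9558 genes of at least 5 CPM the mean did not overlap in these 8 libraries either (1.61 to 2.83 on SD and 3.14 to 3.96 on HFHS diet). Detection moved the same way (2140 to 4232 genes above 10 counts on SD and 4812 to 6529 on HFHS diet), and its part was not tested. The lowest SD value of the mean over the 43 genes was that of pool 32_36, without which SD began at 1.05. In C57Bl/6J the mean was 1.98 ± 0.620 on SD (1.23 to 2.70) and 2.32 ± 2.69 on HFHS diet, where pool 72_76 stood at 6.29 and the other 3 libraries from 0.433 to 1.53, so the higher HFHS mean rested on that library.

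In Tregs of rest brain no gene passed either, though with the strains pooled the gap between the diets in the mean of log2(CPM + 1) was wider than in the other kinds of library. Within C57Bl/6J this mean went from 2.73 on SD to 4.67 on HFHS diet (n = 4 each). Within Balb/c it went from 3.39 (n = 2) to 4.55 (n = 4), where hypothalamic Tregs went from 1.14 to 2.37. Over 9558 genes of at least 5 CPM the mean ran from 3.38 to 4.83 on SD and from 4.65 to 4.95 on HFHS diet. The mean of log2(CPM + 1) over the 43 genes was 2.95 ± 0.787 in 6 SD libraries and 4.61 ± 1.04 in 8 HFHS libraries, and 38 of the 43 genes lay above 0, with a median of 1.09 against 0.098 over all genes, 55.1% of which lay above 0. By edgeR and limma-voom none passed (DESeq2 called 5), and none of 11578 genes did by edgeR (0%). At an unadjusted p under 0.05 stood 8 of the 43 (Rrm2, Mcm5, Pole2, Chaf1a, Cdc6, Orc1, Mcm10 and Pole) against 7.31% of all genes.

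Rrm2 was at 0 in 5 of 6 SD libraries (highest 0.0496 CPM) and ran from 0 to 402 CPM (median 32.3) in the 8 HFHS libraries, with 3 at 0 (12.93 ± 2.71, unadjusted p = 0.000211, adjusted p = 0.246). Mcm5 was at 0 in 4 of 6 SD libraries (highest 12.1 CPM) and ran from 5.84 to 296 CPM (median 58.1) on HFHS diet (6.03 ± 1.93, unadjusted p = 0.00649). Cdc6, Mcm10, Orc1, Pole, Pole2 and Chaf1a were at 0 in all 6 SD libraries, and with these 6 at their counting bound (3 counts over the 6 libraries) the median over the 43 genes was 1.09 as before. Cdc6, the loader of the helicase, was also at 0 in 5 of 8 HFHS libraries, highest 55.7 CPM. Of the genes followed throughout, Pcna had medians of 163 and 210 CPM, Tyms of 35.3 and 65.9 CPM and Tk1 of 10.6 and 22.2 CPM, each with overlapping ranges. Detection moved with the diet in the same libraries, with 5392 to 8778 genes above 10 counts on SD (median 7300.5) and 8405 to 9540 on HFHS diet (median 9157.5), and its part in the gap was not tested. Top2a gave 11.13 (unadjusted p = 0.00012, adjusted p = 0.246), and all 12 proliferation references lay above 0.

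In the pilot, with 1 library a condition, no test was possible, and the values compare libraries and not conditions. Counts on genes ran from 99925 in the ob/ob Treg library to 5334511 in the library labelled WT Treg, which held 1477 CPM of T cell markers, 42531 CPM of microglia markers and 6.56 CPM of Treg markers. The library labelled WT CD4 T cells held 2918 CPM of Treg markers, beside 2602 CPM in the ob/ob Treg library and 304 to 1266 CPM in the other CD4 libraries. The first of these went against its label, and the second held Treg markers at the level of a Treg library. A gene was counted where at least 1 of the 2 libraries had more than 20 normalised reads, and called past 2-fold in either direction. Intervals are exact (Clopper-Pearson, 95%) and cover counting error only.

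In CD4 T cells 5 of the 23 counted genes were past 2-fold higher on HFHS diet and 8 lower, against 24.8% and 37% of all genes counted. Higher were Rfc4 (126 against 92 counts, 2.33-fold, interval 1.77 to 3.09), Rpa2 (254 against 190, 2.28-fold), Rpa3 (257 against 199, 2.20-fold), Pola1 (102 against 63, 2.76-fold) and Cdc45 (59 against 0, at least 33.5-fold). Lower were licensing genes such as Mcm2 (23 against 197 counts, 0.199-fold, interval 0.123 to 0.307) and Mcm6 (1 against 129 counts) and the GINS gene Gins3 (0 against 150, at least 29.3-fold lower). Mcm5 (133 against 136) and Pcna (71 against 182 counts) stayed within 2-fold. Where both libraries had to pass the read limit, 3 genes were past 2-fold. With CPM in place of size factors 4 genes were higher and 14 lower, and with size factors over the 2 libraries compared 6 were higher and 14 lower.

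In Tregs 13 of 23 genes were higher on HFHS diet and 7 lower, against 48.2% and 32.3% of all genes. Pola1 (736 against 0 counts, at least 204-fold), Mcm4 (319 against 0, at least 88.5-fold) and Pcna (178 against 0, at least 49.4-fold) were higher, as were Rfc1 (395 against 102, 3.22-fold, interval 2.59 to 4.05) and Rpa1 (838 against 261, 2.67-fold, interval 2.32 to 3.08). Mcm2 (0 against 189, at least 75.7-fold lower) and Lig1 (14 against 136, 11.7-fold lower) were lower. Where both libraries had to pass the limit, 2 genes were past 2-fold.

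For ob/ob against the library labelled WT, 12 of 17 genes were higher and 3 lower between those labelled CD4 T cells, against 57.2% and 28.5% of all genes, and 5 of 11 were higher and 3 lower between those labelled Tregs, against 24.8% and 54.3%. In the libraries labelled CD4 T cells Rpa1 had 323 against 2 counts (20.7-fold, interval 5.69 to 172), Pcna 71 against 1 (9.11-fold, interval 1.58 to 365), Rfc1 221 against 116 (0.244-fold), Tyms 17 against 15 (0.145-fold) and Dut 0 against 66 (at least 172-fold lower). In those labelled Tregs Rpa3 had 43 against 45 counts (14.9-fold, interval 9.6 to 23.2) and Rfc4 0 against 461 counts. Where both libraries had to pass the limit, 1 gene was past 2-fold in each cell type. With CPM in place of size factors, 9 were higher and 1 lower between those labelled Tregs, and still 12 and 3 between those labelled CD4 T cells. Cdc6 and Rfc5 were at 0 in all 8 pilot libraries.

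Across the 59 libraries of the main experiment, the genes outside the 43 whose level followed the mean of the 43 most closely were Prc1 (Spearman's rho 0.842), Asf1b (0.821), Tcf19 (0.811), Spc24 (0.809) and Cdk1 (0.804), out of 9558 genes of at least 5 CPM. Within the 29 activated Tconv libraries their rho was 0.647, 0.718, 0.595, 0.610 and 0.551. The points share the detection differences between libraries given above, so the values describe likeness only.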

How the data were processed

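For the 59 libraries of the main experiment (SMARTer low-input RNA, mouse mm10), the authors deposited Salmon estimated counts and TPM per RefSeq name from the nf-core/rnaseq workflow. For the 8 pilot libraries they deposited HTSeq counts per gene after BWA-mem alignment to mm10. The 43 genes and the other gene lists were chosen with earlier results of these data known. Of 35034 names in each file, 34652 (98.91%) matched a RefSeq gene and were summed to 24164 genes; expected (estimated) counts were rounded. CPM were taken over a library's sum on named genes. The sum of T cell and other marker genes served as a check of cell type. Differences were tested with edgeR 4.0.16 (quasi-likelihood test, TMM, R 4.3.3) on every gene that exceeded 10 counts in a number of libraries equal to the smallest strain-and-diet group, with strain, diet, tissue or cell type as the other terms of each fit. The p-values were adjusted by Benjamini-Hochberg over all genes tested and called at 0.05, in 15 comparisons. The log2 values ± are SE of the fit. The script was tested on simulated data.

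Alternatives were DESeq2 1.42.0, limma 3.58.1 (voom with sample weights), edgeR with DESeq2-type size factors (RLE) or with library totals, a filter of more than 10 counts in total, the pool as a block, each strain or diet alone, each library left out in turn, offsets by GC content in 20 bins and Treg libraries with at least 5000 detected genes. The last 2, the interaction of tissue and strain and the means without pools 11_15, 32_36 and 72_76 were added after seeing the data. In the pilot, the 8 libraries were scaled by DESeq2-type size factors, with 95% Clopper-Pearson intervals and a floor of 3 counts for a gene at 0. Intervals cover counting error only. Named genes were Mcm5, Pcna, Rrm2, Tyms and Tk1 throughout, in each comparison the 3 called genes of lowest p in each direction, or the 2 largest differences where none was called, the 3 highest and lowest by median TPM, and from the other lists the called genes of lowest p, at most 2 a list and direction. Protein sequences were not used here. Computation used Python 3.11.15, pandas 2.3.3, numpy 2.4.6, scipy 1.17.1 and matplotlib 3.10.9. The labels do not say that libraries came from separate experiments, so p-values measure the spread between these pools.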

Additional observations from a re-analysis of the deposited data

Results flagged for a closer look

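In groups of 4 libraries, 15 values of the mean over the 43 genes or of Mcm5, Pcna, Rrm2, Tyms and Tk1 lay far from the rest of their group by Dixon's criterion, among 72 groups tested. In 6 of the 15 the other 3 libraries were all at 0, so any value above 0 stands apart, and the rate of about 1 in 20 that chance gives for the criterion does not hold with such ties. All values here are log2(CPM + 1). In the hypothalamic C57Bl/6J HFHS Tregs the library of pool 72_76 was far above its group in Mcm5 (7.79365), Rrm2 (7.82112), Tyms (8.55315) and Tk1 (6.9808). In the hypothalamic C57Bl/6J SD Tregs pool 62_66 was far below in Pcna (0.0773394) and pool 43_47, 11_15 and 62_66 stood apart in Rrm2 (1.73943), Tyms (3.61859) and Tk1 (0.0391878). In the hypothalamic Balb/c SD Tregs pool 37_41 stood out in Mcm5 (8.02225) and pool 32_36, the library rich in microglia markers, in Tk1 (8.51003). In rest-brain C57Bl/6J SD Tregs pool 62_66 was alone above 0 in Mcm5 (3.70793) and pool 67_71 in Rrm2 (0.0697834). Among activated Tconv of the Balb/c hypothalamus, the SD library of pool 06_10 was lowest in Rrm2 (0) and Tk1 (2.24046), and the HFHS library of pool 16_20 lowest in Tk1 (2.5451).

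Effects that differed between groups by an interaction test were Mcm10 between cell types and tissues (-6.12199 on the log2 scale) and, between tissues and strains of activated Tconv, Rpa1 (1.79823) and Rpa3 (-1.2544).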

How the results depend on the processing

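Counts are of the 43 genes that passed. For Tregs against activated Tconv in the hypothalamus, 10 became 18 with DESeq2, 40 with limma-voom, 31 with the pool as a replicate block, 0 in C57Bl/6J alone, 0 in Treg libraries with at least 5000 genes and 7 to 20 without 1 library. The genes lower over all tested moved with it, from 1472 of 11156 to 2498 of 11156, 7341 of 11156, 5421 of 11093, 359 of 10166 and 270 of 13788 in the first 5 of these. In rest brain 3 became 7, 8 and 0 with DESeq2, limma-voom and C57Bl/6J alone and 2 to 5 without 1 library (5 without the Treg library of C57Bl/6J HFHS pool 77_80), and the 3 with the block shared 1 gene with the 3 without it. Over all genes there, 515 higher and 1655 lower became 916 and 1723 with DESeq2, 545 and 2935 with limma-voom and 130 and 296 in C57Bl/6J alone. For the tissues in activated Tconv, 12 became 2 with the block, 1 with the block and the GC offsets, 19 in Balb/c alone, 0 in C57Bl/6J alone and 10 to 14 without 1 library, and limma-voom split its 13 into 10 higher and 3 lower. For the tissues in Tregs, 1 became 9 with DESeq2, 22 with limma-voom, 0 with the block, 6 in Balb/c alone, 0 in C57Bl/6J alone, 0 in the better detected libraries and 0 to 7 without 1 library. The interaction of cell type and tissue went from 1 to 6 with DESeq2, 2 with the looser filter, 28 with limma-voom, 0 in the better detected libraries and 0 to 8 without 1 library. Over all 14585 genes, 855 higher and 522 lower became 463 and 1013 with DESeq2 and 1119 and 4757 with limma-voom. For the strains, 2 in the activated hypothalamus became 1 with limma-voom, 0 in either diet alone and 0 to 2 without 1 library, 11 in rest brain became 3 in SD alone and 8 to 12 without 1 library, and 0 in hypothalamic Tregs became 1 with DESeq2. The interaction of tissue and strain went from 2 to 4 with DESeq2 and 2 to 4 without 1 library. For the diet in Tregs, 0 became 2 with DESeq2 in the hypothalamus and 5 with DESeq2 in rest brain. Over all genes DESeq2 called 115 higher and 61 lower of 7646 in the hypothalamus and 259 and 66 of 11578 in rest brain. The better detected libraries of the hypothalamus hold no Balb/c SD library and 1 of C57Bl/6J HFHS, pool 72_76. Their diet term rests on that library, so no count is given. All other counts for the diet, its interaction with tissue and the strains in Tregs were 0 to 0 without 1 library. In the pilot 13, 20, 15 and 8 became 3, 2, 1 and 1 where both libraries had to pass, and the 13 became 20 with size factors from 2 libraries. The causes were not tested.

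Over 114 named results, 2970 values kept their direction and side of the threshold, 92 moved, 75 fell below it, 29 rose past it and 1 reversed: Mcm10 in the interaction of cell type and tissue, 0.115794 with limma-voom. Library totals shifted the median of all genes between the strains in activated rest brain from -0.031 to -0.30. Pool names recur between groups, and no source says that these share mice. Same-named libraries correlated in their deviations from -0.046 to 0.130, and each was nearest its own pool in 3 of 15, 5 of 12, 5 of 9 and 3 of 10 cases. The rate that chance gives was not computed, so these counts do not settle whether the libraries are paired. The block (31, 3, 2 and 0 genes) is therefore given as an alternative. Low detection limits what Treg libraries can show.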
